A study of Mus musculus with 20 samples.

Results

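The insulin-like growth factor (IGF) system of the striatum was followed through 10 genes of the 22180 that the array table names with a single symbol: the ligands Igf1 and Igf2, the receptors Igf1r and Igf2r, and the binding proteins Igfbp2, Igfbp3, Igfbp4, Igfbp5, Igfbp6 and Igfbp7. They were chosen by name, with earlier results of these data known. Each was read by 1 probe set, so no choice between probe sets was needed. IGF1 and IGF2 are secreted growth factors that signal through the tyrosine kinase receptor encoded by Igf1r, while the receptor encoded by Igf2r carries IGF2 to lysosomes for breakdown. The binding proteins hold the ligands outside cells and either withhold them from the receptor or deliver them to it. In the brain, IGF1 supports neuron survival, myelination and neural progenitors, and IGF2 is made largely by the meninges and the choroid plexus.

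RNA came from the dorsal striatum of 20 mice aged 12 months, on a congenic C57B6/J background, with 5 mice in each of 4 groups and no pooling of animals. ASO-NSC mice were transgenic for human wild-type α-synuclein under the PDGF-β promoter (line D) and had mouse neural stem cells (NSCs) injected into the striatum. ASO-Veh mice carried the same transgene and had saline injected, WT-NSC mice were wild-type littermates given NSCs, and WT-Veh mice were wild-type littermates given saline. The NSCs came from the hippocampus and cortex of newborn GFP-transgenic mice, so the arrays read graft and host RNA of the same species together, and fewer cells of a type cannot be told apart from less RNA per cell. The transgene came from 1 line.

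Values are log2 intensities after robust multiarray averaging (RMA), so a difference is a log2 ratio. Groups were compared with limma on 19 arrays with a term for the labelled sex, without ASO-NSC mouse 59, which the study also left out. A gene was called at a p adjusted over all 22180 genes under 0.05. RNA integrity numbers were 9.2 to 9.7. Litter followed treatment closely: litters 1 and 5 were all vehicle, litters 4 and 6 were all NSC, and litter 3 alone held both, with ASO-Veh mice 46 and 47 and WT-NSC mouse 53. In 5 arrays the X- and Y-linked sex genes did not match the labelled sex (ASO-Veh mice 45 and 47, WT-NSC mouse 54, WT-Veh mice 61 and 62). Markers of spiny neurons, the main striatal cell type, were measured for 8 of 11 genes, and their mean per mouse was 9.68 to 10.52 in ASO-NSC, 10.32 to 10.74 in ASO-Veh, 10.28 to 10.72 in WT-NSC and 10.41 to 10.72 in WT-Veh mice.

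Of the members, Igfbp5 was higher in NSC mice than in vehicle mice when both genotypes were averaged, by 0.40 log2 units (SE 0.06, a 1.32-fold difference), in a comparison that called 1.15% of all genes, and no other member was called in any of 7 comparisons. The Igfbp5 call was lost with litter as a fixed block (0.12, SE 0.18, limma adjusted p = 0.997). That fit compares the treatments through litter 3 alone, with 1 NSC and 2 vehicle mice. The call was also lost, in fewer mice, without litter 4 (0.39, limma adjusted p = 0.0915) or litter 6 (0.36, 0.171), where the effect itself changed little. Litter and NSC treatment cannot be told apart for most mice. Igfbp2, the neighbour of Igfbp5, gave 0.22 (SE 0.10) in the averaged comparison, which did not pass the test. The genes encoding both ligands and both receptors differed between NSC and vehicle mice by at most 0.11 log2 units in either genotype. Igfbp5 and Igfbp2 lie side by side on chromosome 1 (GRCm38.p6), with Igfbp2 at chr1:72824480-72852474 on the plus strand and Igfbp5 at chr1:72858065-72874865 on the minus strand. Their ends face each other across 5.59 kb with no annotated gene between them, and their start sites are at the outer sides of the pair.

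The 250 bases before the RefSeq start of Igfbp5 and before the first of 2 RefSeq starts of Igfbp2 (GRCm38.p6) are shown because they are start regions of the called member and of the gene beside it. They were searched on both strands for the TATA box TATAAA, the GC box GGGCGG, the box with the letters CCAAT, an interferon response element (GAAA repeated after 2 bases of any kind) and the variant TATTTAA, and capitals mark the matches. No searched match overlapped another in the windows shown. TATTTAA was added to the search after the Igfbp5 sequence had been read.
Igfbp5: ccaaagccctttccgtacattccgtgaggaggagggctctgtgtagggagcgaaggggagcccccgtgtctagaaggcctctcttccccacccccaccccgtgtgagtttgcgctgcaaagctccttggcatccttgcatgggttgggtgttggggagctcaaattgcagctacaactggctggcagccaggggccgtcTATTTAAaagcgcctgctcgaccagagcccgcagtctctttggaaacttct
Igfbp2: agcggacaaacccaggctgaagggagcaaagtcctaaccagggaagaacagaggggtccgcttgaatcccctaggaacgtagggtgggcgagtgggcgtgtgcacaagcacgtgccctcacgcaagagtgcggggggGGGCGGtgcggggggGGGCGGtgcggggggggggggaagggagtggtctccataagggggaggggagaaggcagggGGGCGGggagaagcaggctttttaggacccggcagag
The Igfbp5 window (chr1:72874866-72875115, minus strand, 58.8% GC) held 1 TATTTAA and none of the other motifs, and TATTTAA was found in 4.18% of 32841 windows of the same length before the RefSeq starts. The Igfbp2 window (chr1:72824230-72824479, plus strand, 67.2% GC) held 3 GC boxes, a motif present in 32.7% of those windows. The window before the other Igfbp2 start (chr1:72825137-72825386, plus strand, 56.4% GC) held none of the motifs. All 10 members matched a RefSeq entry, with 14 start regions in all. A GC box was found in 5 members, TATAAA in 2, CCAAT in 3 and the interferon response element in none. Counted by start region, these were 6, 2, 3 and 0 of the 14. In all windows TATAAA occurred in 12.4%, CCAAT in 33.9% and the interferon response element in 2.98%. A match is a description of letters and not a binding site.

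**Figure D1:**
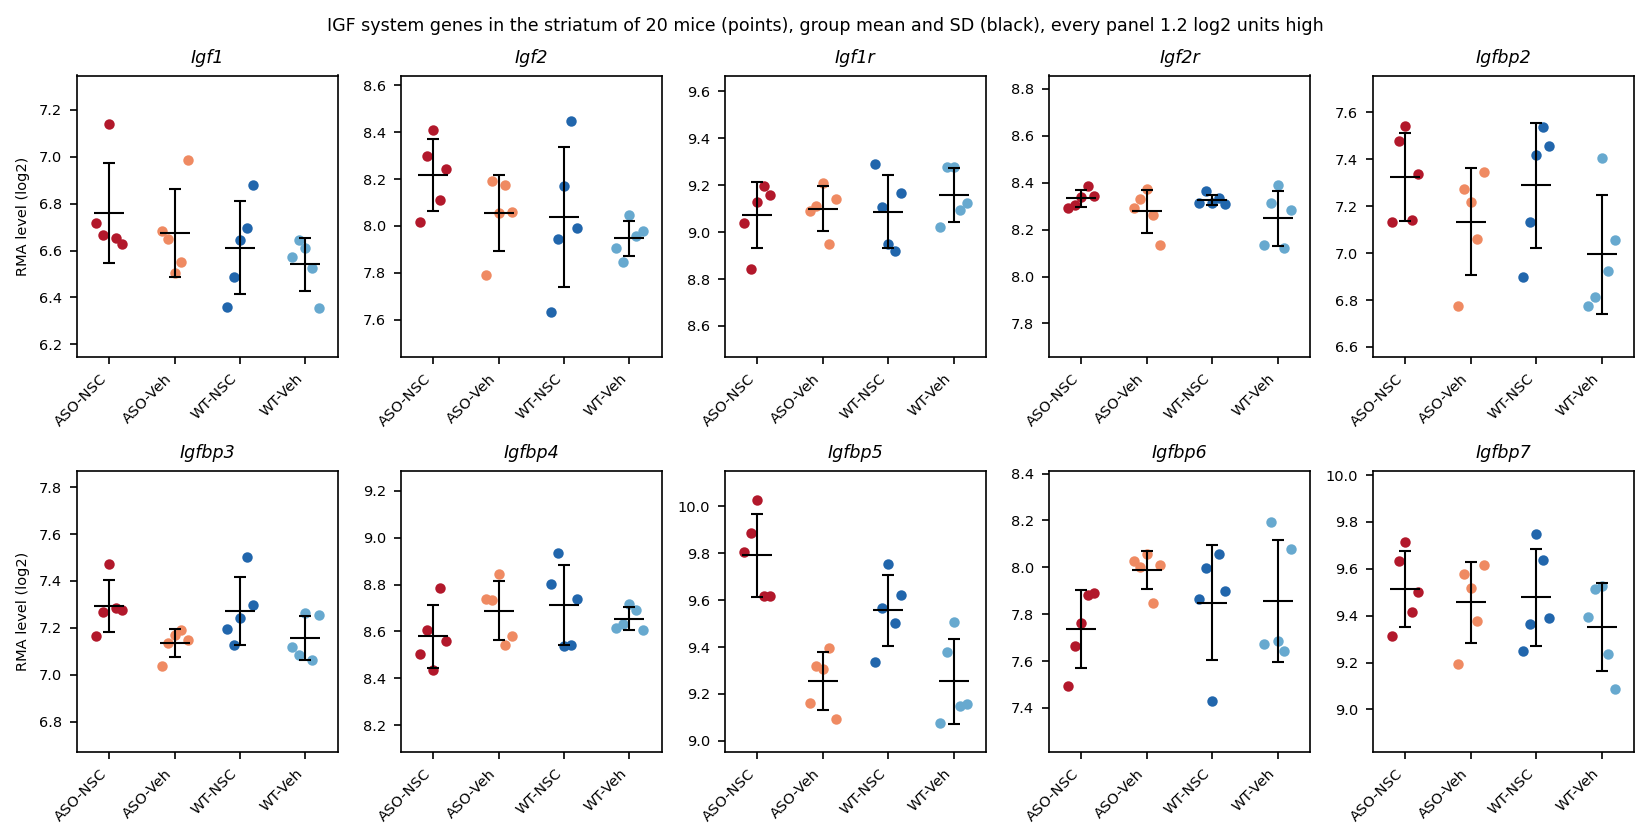
Each panel shows 1 of the 10 genes, with the RMA level (log2) on the vertical axis, a point for each of 5 mice per group (ASO-NSC, ASO-Veh, WT-NSC, WT-Veh) and the group mean with its SD in black. Igfbp5 is the member whose 5 ASO-NSC mice all sit above the 5 ASO-Veh mice, and in the other 9 panels these groups overlap.

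Among the ligands, Igf1 read 6.72, 6.66, 7.14, 6.65 and 6.63 log2 units in the ASO-NSC mice, against 6.68, 6.65, 6.50, 6.55 and 6.99 in the ASO-Veh mice. ASO-NSC mouse 59 stood above all others and the remaining values of the groups overlapped. In WT mice the values were 6.36, 6.49, 6.64, 6.70 and 6.88 after NSCs and 6.57, 6.64, 6.61, 6.53 and 6.35 after vehicle, and these also overlapped. The NSC effect on Igf1 was -0.01 (95% interval -0.22 to 0.21) in ASO mice and 0.07 (-0.13 to 0.27) in WT mice.

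Igf2, the imprinted ligand, read 8.02, 8.30, 8.41, 8.11 and 8.24 in ASO-NSC mice, against 7.79, 8.19, 8.06, 8.18 and 8.06 in ASO-Veh mice. It read 7.64, 7.95, 8.17, 8.45 and 7.99 in WT-NSC mice, against 7.91, 7.85, 8.05, 7.96 and 7.98 in WT-Veh mice. The WT-NSC mice held both the lowest and the highest value of all 20, with mouse 53 lowest and mouse 70 highest, and their SD was 0.30, against 0.08 in WT-Veh mice. The NSC effect was 0.11 (95% interval -0.15 to 0.37) in ASO and 0.10 (-0.15 to 0.34) in WT mice. Igf2 is encoded at chr7:142650768-142666816.

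Neither receptor was called. Igf2r had an interquartile range over the 20 mice within the lowest 0.73% of all genes. Its levels were 8.29 to 8.38 in ASO-NSC, 8.13 to 8.37 in ASO-Veh, 8.31 to 8.36 in WT-NSC and 8.12 to 8.39 in WT-Veh mice. The low ends of both vehicle groups were below both NSC groups, while the high ends overlapped. Igf1r ranged over 8.84 to 9.20 in ASO-NSC, 8.95 to 9.21 in ASO-Veh, 8.92 to 9.29 in WT-NSC and 9.02 to 9.28 in WT-Veh mice, with all groups overlapping. The NSC effect on Igf1r was -0.04 (95% interval -0.23 to 0.15) in ASO and -0.08 (-0.26 to 0.10) in WT mice, and that on Igf2r 0.05 (-0.08 to 0.18) and 0.09 (-0.04 to 0.21).

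Igfbp5, a secreted binding protein that also attaches to the extracellular matrix, read 9.81, 9.89, 10.03, 9.62 and 9.62 in ASO-NSC mice, against 9.16, 9.32, 9.31, 9.40 and 9.09 in ASO-Veh mice. All 5 ASO-NSC mice were above all 5 ASO-Veh mice, and mouse 59, the array left out of the fit, was the highest of all 20. In WT mice it read 9.34, 9.57, 9.75, 9.50 and 9.62 after NSCs, against 9.08, 9.38, 9.51, 9.15 and 9.16 after vehicle. WT-NSC mouse 53 lay below WT-Veh mice 62 and 64, so the WT groups overlapped. Over all 5 mice of each group the means were 9.79 ± 0.18 in ASO-NSC, 9.26 ± 0.12 in ASO-Veh, 9.56 ± 0.15 in WT-NSC and 9.25 ± 0.18 in WT-Veh mice (SD, n = 5 each).

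The NSC effect on Igfbp5 in limma was 0.46 (SE 0.08, 95% interval 0.28 to 0.64, adjusted p = 0.180) in ASO mice, where it ranked number 4 of 22180 genes by p, and 0.34 (SE 0.08, 0.17 to 0.50, adjusted p = 0.0820) in WT mice. Averaged over both genotypes it was 0.40 (SE 0.06, 95% interval 0.28 to 0.52, limma adjusted p = 0.00227), so Igfbp5 was called higher in NSC mice in this comparison but not with litter as a fixed block. The effect in ASO minus that in WT mice was 0.13 (SE 0.12, 95% interval -0.12 to 0.37, limma adjusted p = 1.00), so a genotype difference was not shown. In the order ASO-NSC, WT-NSC, ASO-Veh, WT-Veh, a difference between the 2 neighbours at each end was not established. ASO-NSC minus WT-NSC was 0.16 (95% interval -0.02 to 0.34) and ASO-Veh minus WT-Veh was 0.03 (-0.13 to 0.20).

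In ASO mice 0 of the 10 members were called by limma, beside 0.00902% of all genes, and 1 had an unadjusted p under 0.05, beside 8.88%. Igfbp5 was the 1 member whose ASO-NSC and ASO-Veh mice did not overlap in the fitted arrays, beside 3.01% of genes apart in the same direction. In WT mice 0 of the 10 were called, beside 0.433% of genes, and 2 (Igfbp5 and Igfbp2) had an unadjusted p under 0.05, beside 13.5%. For the average of both genotypes 1 of 10 was called, beside 1.15% of genes, and 3 (Igfbp5, Igfbp3 and Igfbp2) had an unadjusted p under 0.05, beside 18.7%. The median difference over the members was 0.02 in ASO mice, 0.09 in WT mice and 0.07 on average, and the median over all genes was 0.00 in each of these.

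**Figure D2:**
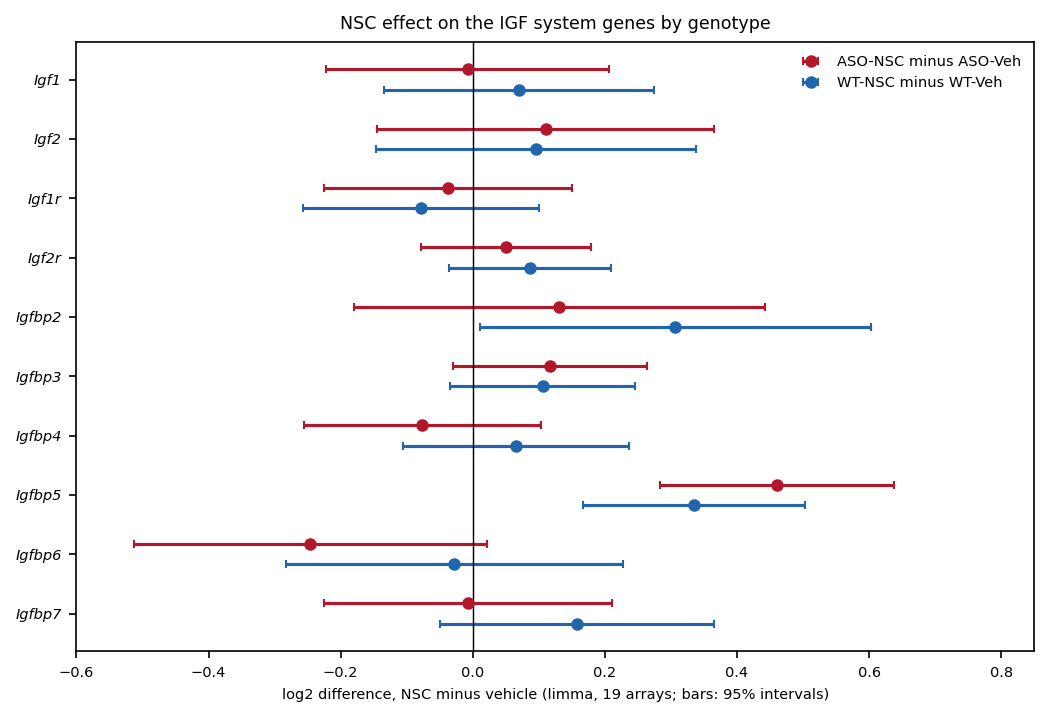
Points give limma's log2 difference of NSC minus vehicle mice for each gene in ASO mice (upper, red) and WT mice (lower, blue), and bars are 95% intervals from 19 arrays. Igfbp5 lies to the right of 0 in both genotypes (0.46 and 0.34), Igfbp2 does so in WT mice (0.31), and the other intervals include 0.

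Igfbp5 was also read by litter, which nearly coincided with treatment. In litter 6 the 3 ASO-NSC mice averaged 9.91 and the 2 WT-NSC mice 9.66. Those 3 include mouse 59, which was left out of the fit and read 10.03. In litter 4 the 2 ASO-NSC mice averaged 9.62 and the 2 WT-NSC mice 9.56. In litter 3, the litter that held both treatments, WT-NSC mouse 53 read 9.34, against 9.31 and 9.40 in ASO-Veh mice 46 and 47, so within this litter the NSC mouse lay between the vehicle mice. In litter 1 the 2 ASO-Veh mice averaged 9.24 and the 2 WT-Veh mice 9.23, and in litter 5 the ASO-Veh mouse read 9.09 and the 3 WT-Veh mice averaged 9.27. With litter as a fixed block the averaged NSC effect on Igfbp5 was 0.12 (SE 0.18, limma adjusted p = 0.997) and no longer called. With litter as a random block it was 0.40 (SE 0.06, limma adjusted p = 0.00186), at an estimated litter correlation over all genes of -0.00886. With a correlation so near 0, that fit is close to the one without a block. It does not separate litter from treatment, since litters 1, 4, 5 and 6 each held 1 treatment. Without the mice of litter 4 it was 0.39 (limma adjusted p = 0.0915), without those of litter 6 it was 0.36 (0.171) and without those of litter 3 it was 0.44 (0.0105). No litter held NSC and vehicle mice of the same genotype, so litter and NSC treatment cannot be told apart for most of these mice. Genotype could be compared within litters, where ASO minus WT was 0.25 in litter 6, 0.05 in litter 4, 0.01 in litter 1 and -0.18 in litter 5. The litter 6 value includes mouse 59.

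**Figure D3:**
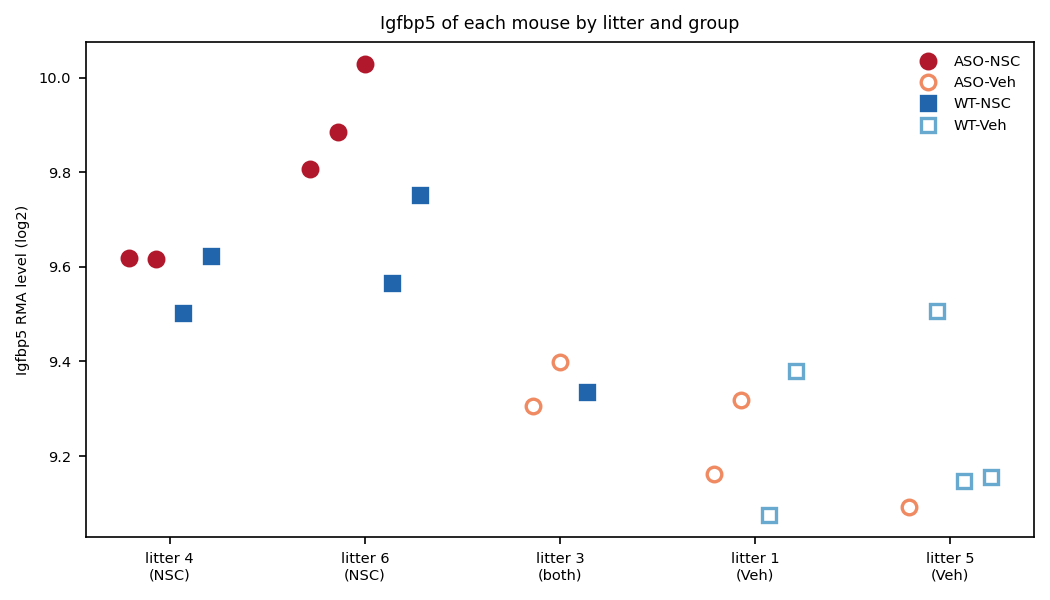
The Igfbp5 level (RMA, log2) of each of the 20 mice is plotted by litter, with circles for ASO and squares for WT mice, filled for NSC and open for vehicle. All NSC mice of litters 4 and 6 read 9.50 or more, and the 1 NSC mouse of litter 3 reads 9.34, level with its 2 vehicle litter mates.

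The Igfbp5 level also differed by sex. By the sex genes, 13 mice had the female pattern and averaged 9.35, and 7 had the male pattern and averaged 9.67. Of those 7, 4 were NSC mice (56, 57, 58 and 59), all of litter 6, and mouse 59 was left out of the fit. These means therefore partly follow treatment and litter. With the sex term taken from the genes, the averaged NSC effect was 0.38 (limma adjusted p = 0.00120). In that fit Igfbp5 was also called within each genotype, at 0.45 in ASO mice (limma adjusted p = 0.0387) and 0.30 in WT mice (0.0494). Without the 5 arrays whose sex genes did not match the label the averaged effect was 0.40 (limma adjusted p = 0.00933), and Igfbp5 was not called within ASO mice (0.50, adjusted p = 0.0891) or within WT mice (0.30, 0.191).

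Markers of glia were higher in NSC mice beside Igfbp5. In the averaged comparison, which called 1.15% of all genes, 2 of 10 astrocyte markers were called higher (Gfap, by 0.75, and Aqp4, by 0.38). So were 3 of 11 microglia markers (C1qa, by 0.46, Itgam, by 0.29, and Csf1r, by 0.27). Of 11 neural stem and progenitor markers 2 were called higher (Vim, by 0.51, and Tnc, by 0.43). Of 13 interferon-induced genes 11 were called higher, which were Cxcl10, Usp18, Ifit1, Oasl2, Rtp4, Herc6, Irgm2, Eif2ak2, Igtp, Bst2 and Irf7, with Cxcl10 higher by 1.21. Litter and NSC treatment cannot be told apart for most mice here either, and this comparison called as few as 0 genes under the alternatives. The lists were chosen with earlier results of these data known, so their counts are descriptions. The interferon list ranged over 6.75 to 7.73 in ASO-NSC mice, against 6.32 to 6.74 in ASO-Veh mice, and over 6.93 to 7.83 in WT-NSC mice, against 6.21 to 6.47 in WT-Veh mice. The microglia list ranged over 7.77 to 8.00 in ASO-NSC mice, against 7.68 to 7.80 in ASO-Veh mice, and over 7.91 to 8.17 in WT-NSC mice, against 7.66 to 7.84 in WT-Veh mice. The astrocyte list averaged 9.86 (range 9.68 to 10.03) in ASO-NSC mice, against 9.60 (9.55 to 9.65) in ASO-Veh mice, and 9.76 (9.63 to 9.88) in WT-NSC mice, against 9.53 (9.36 to 9.66) in WT-Veh mice. Limma called 0 of the fibroblast, choroid plexus, endothelial, pericyte and oligodendrocyte markers for the average of both genotypes. An unadjusted p under 0.05 was found for 3 of 18, 1 of 10, 4 of 13, 0 of 11 and 5 of 7 of them, beside 18.7% of all genes. Of 8 spiny neuron markers 0 were called, 1 had an unadjusted p under 0.05 and 0 were above 0 (median -0.125). Of 11 striatal interneuron markers 0 were called, 2 had an unadjusted p under 0.05 and 8 were above 0 (median 0.021). Among mice of the same group, Igfbp5 and the astrocyte mean had a Pearson r of 0.594 and a Spearman rho of 0.598 (permutation test, adjusted p = 0.104 and 0.105 over 100 pairs), and 0.278 when centred on litter and group. The part of glia in the Igfbp5 difference was not tested.

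Igfbp2, a binding protein made by progenitors, choroid plexus and meninges, read 7.13, 7.48, 7.54, 7.14 and 7.34 in ASO-NSC mice, against 6.78, 7.28, 7.22, 7.06 and 7.35 in ASO-Veh mice. In WT mice it read 6.90, 7.13, 7.42, 7.54 and 7.46 after NSCs, against 6.77, 6.81, 7.41, 6.92 and 7.06 after vehicle. Both pairs of groups overlapped, and the SD within a group was 0.19 to 0.27. The NSC effect was 0.13 (SE 0.15, limma adjusted p = 0.798) in ASO mice, 0.31 (SE 0.14, adjusted p = 0.351) in WT mice and 0.22 (SE 0.10, adjusted p = 0.256) on average. The interquartile range of Igfbp2 over the 20 mice was above that of 96.2% of genes.

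Igfbp3, the main carrier of IGFs in blood, read 7.17, 7.27, 7.47, 7.29 and 7.28 in ASO-NSC mice, against 7.04, 7.14, 7.17, 7.19 and 7.15 in ASO-Veh mice. It read 7.19, 7.13, 7.24, 7.50 and 7.30 in WT-NSC mice, against 7.12, 7.08, 7.26, 7.06 and 7.26 in WT-Veh mice. The groups overlapped in both genotypes, in ASO mice through NSC mouse 56 alone. The NSC effect was 0.12 (95% interval -0.03 to 0.26) in ASO, 0.11 (-0.03 to 0.25) in WT and 0.11 (0.01 to 0.21, limma adjusted p = 0.227) on average.

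Igfbp6, which binds IGF2 in preference to IGF1, had the lowest NSC effect of the members in ASO mice. It read 7.49, 7.66, 7.76, 7.88 and 7.89 in ASO-NSC mice, against 8.03, 8.00, 8.06, 7.85 and 8.01 in ASO-Veh mice. These groups overlapped through ASO-Veh mouse 47 alone. The WT values were 7.86, 7.99, 7.43, 8.05 and 7.90 after NSCs and 7.67, 8.19, 7.69, 7.64 and 8.08 after vehicle, with wide overlap. The effect was -0.25 (SE 0.13, 95% interval -0.51 to 0.02, limma adjusted p = 0.584) in ASO mice and -0.03 (SE 0.12, -0.28 to 0.23) in WT mice, and the difference between the genotypes was -0.22 (SE 0.18, limma adjusted p = 1.00). By the sex genes, Igfbp6 averaged 7.94 in the 13 mice of the female pattern and 7.71 in the 7 of the male pattern. The 7 include NSC mice 56, 57, 58 and 59 of litter 6, so these means partly follow treatment and litter.

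Igfbp4, which restrains IGF1 until a protease cuts it, ranged over 8.44 to 8.79 in ASO-NSC, 8.54 to 8.85 in ASO-Veh, 8.54 to 8.93 in WT-NSC and 8.61 to 8.72 in WT-Veh mice. Igfbp7, a relative of low IGF affinity that is made by blood vessels, ranged over 9.31 to 9.71 in ASO-NSC, 9.19 to 9.62 in ASO-Veh, 9.25 to 9.75 in WT-NSC and 9.09 to 9.53 in WT-Veh mice. All groups overlapped for both genes. The NSC effect on Igfbp4 was -0.08 (SE 0.09) in ASO and 0.07 (SE 0.08) in WT mice, and that on Igfbp7 was -0.01 (SE 0.10) and 0.16 (SE 0.10).

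The α-synuclein transgene gave no call among the members. In vehicle mice, ASO minus WT ran from -0.06 for Igf1r to 0.15 for Igfbp2, with 0 of 10 called and 0 at an unadjusted p under 0.05, beside 0% and 4.81% of all genes. In NSC mice it ran from -0.11 for Igfbp6 to 0.16 for Igfbp5, again with 0 and 0, beside 0.00451% and 3.05% of genes. ASO-NSC minus WT-Veh was 0.49 for Igfbp5 (SE 0.08, limma adjusted p = 0.0634), and ASO-NSC mice lay above WT-Veh mice without overlap, as did 2.25% of genes. In that comparison 0 of 10 were called, beside 0.0135% of genes, and 1 had an unadjusted p under 0.05, beside 13.7%. The comparisons share groups, so their values are not independent. The difference of the NSC effect between genotypes was called for 0 of 10 members, beside 0% of genes, and 0 had an unadjusted p under 0.05, beside 3.64%.

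The genes around the IGF system were read as lists, which were chosen with earlier results of these data known. Of 53 IGF signalling genes 43 were measured (adaptors, kinases and targets downstream of the receptor), and 0 were called in ASO, in WT or in the averaged NSC comparison. Unadjusted p-values under 0.05 numbered 3, 6 and 8 of the 43, close to the 8.88%, 13.5% and 18.7% of all genes, and the median difference was 0.02, 0.02 and 0.03. The averaged NSC effect was 0.21 (SE 0.07, limma adjusted p = 0.110) for Eif4ebp1, a translation repressor under mTOR, 0.12 (SE 0.05, 0.244) for Irs2, an adaptor of the receptor, and 0.10 (SE 0.05, 0.251) for Grb14, an inhibitor of insulin-type receptors. Foxo4, a transcription factor restrained by AKT, gave 0.18 (SE 0.07, limma adjusted p = 0.483) in ASO mice and -0.06 (SE 0.06, 0.724) in WT mice. Eif4e, the translation factor that Eif4ebp1 binds, and Irs4, another adaptor, were added after their values were seen. Eif4e gave 0.11 (SE 0.04, limma adjusted p = 0.140) on average, and Irs4 gave 0.57 (SE 0.26, 0.241).

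Of 18 IGF carriers, binding-protein proteases and relatives 17 were measured, with 0 called in the same 3 comparisons and 0, 4 and 4 of the 17 at an unadjusted p under 0.05, beside 8.88%, 13.5% and 18.7% of all genes. The averaged effect was 0.24 (SE 0.09, limma adjusted p = 0.157) for the protease gene Mmp2, 0.22 (SE 0.07, 0.104) for Vtn, whose product vitronectin is a matrix protein, 0.13 (SE 0.05, 0.204) for Htra1, a serine protease, and -0.14 (SE 0.07, 0.299) for Stc2, whose product inhibits a binding-protein protease. A further list held 14 genes of imprinting and of Igf2 RNA binding, not all of them at the Igf2 locus. Of these 11 were measured, with 0 called by limma on average and 1 at an unadjusted p under 0.05, beside 18.7% of all genes. Meg3, a maternally expressed non-coding RNA, had the smallest p there, at -0.22 (SE 0.06, limma adjusted p = 0.0619). Ndn was at 0.23, Cdkn1c at 0.09 and Peg3 at 0.08, with adjusted p of 0.270, 0.445 and 0.505. All 11 genes of the growth hormone axis were measured, with 0 called by limma on average and 3 at an unadjusted p under 0.05, beside the same 18.7%. The averaged effect was -0.20 (limma adjusted p = 0.0927) for Ghrhr, 0.23 (0.205) for Sstr1, 0.07 (0.625) for Sst and -0.08 (0.337) for Jak2.

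Between mice of the same group, some members varied together with each other and with markers of the brain's borders. Values were centred on group means over all 20 arrays and tested by permutation within groups (two-sided), and p-values were adjusted over 45 member pairs and over 100 pairs of a member and 1 of 10 marker lists. The points share array normalization and dissection. For Igf2 and Igfbp2, Pearson's r was 0.794 (adjusted p = 0.0018) and Spearman's rho 0.771 (adjusted p = 0.0144), r was 0.769 without the 2 mice farthest from the median and 0.726 within litter and group. For Igfbp2 and Igfbp3, r was 0.71 and rho 0.749 (adjusted p = 0.0147 and 0.0144), and 0.694 and 0.680 in those same checks. For Igf2 and Igfbp3, r was 0.760 and rho 0.693 (adjusted p = 0.0147 and 0.0339), with 0.546 without the 2 farthest mice. Igfbp7 passed for r but not for rho with Igf2 (r = 0.669, rho = 0.620, adjusted p = 0.0365 and 0.0701) and with Igfbp2 (r = 0.674, rho = 0.662, adjusted p = 0.0446 and 0.0621). The other 40 member pairs did not pass for r.

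Igf2 followed the mean of 18 meningeal and perivascular fibroblast markers, with r = 0.872 and rho = 0.768 (permutation test, adjusted p = 0.005 and 0.0222). That r was 0.780 without the 2 farthest mice and 0.863 within litter and group. The fibroblast mean ran over 7.49 to 7.90 in ASO-NSC, 7.30 to 7.71 in ASO-Veh, 7.04 to 7.77 in WT-NSC and 7.21 to 7.54 in WT-Veh mice, and WT-NSC mice 53 and 70 were the lowest and highest of their group for it as for Igf2. Igfbp2 (r = 0.781, rho = 0.741, adjusted p = 0.005 and 0.0194), Igfbp3 (r = 0.756, rho = 0.680, adjusted p = 0.015 and 0.0355) and Igfbp7 (r = 0.714, rho = 0.740, adjusted p = 0.0186 and 0.0185) varied with the same list. Without the 2 farthest mice these r were 0.679, 0.728 and 0.616. None of the fibroblast pairs, that of Igf2 included, passed when the test was repeated without those mice.

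Igfbp7 varied with the endothelial list, with r = 0.857 and rho = 0.848 (permutation test, adjusted p = 0.003 and 0.003), 0.833 without the 2 farthest mice and 0.865 within litter and group. The largest gap between inner mice in that list was 0.143 of its range. Taken separately, r was 0.261 in the 11 mice below it and 0.543 in the 9 above. Igf2 also varied with the astrocyte list (r = 0.619, rho = 0.750, adjusted p = 0.0186 and 0.0167). Igf1r ran against the striatal interneuron list (r = -0.698, rho = -0.686, adjusted p = 0.0186 and 0.0355). Igfbp2 passed for both measures with the neural stem and progenitor list (r = 0.680, rho = 0.662, adjusted p = 0.0335 and 0.0454). Passing for r alone were Igf2 with the progenitor list (0.595), Igfbp2 with the astrocyte list (0.638) and Igfbp4 with the spiny neuron list (0.667). When the test was repeated without the 2 farthest mice, 2 of all 100 pairs passed, those of Igfbp7 with the endothelial and the pericyte lists.

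**Figure D4:**
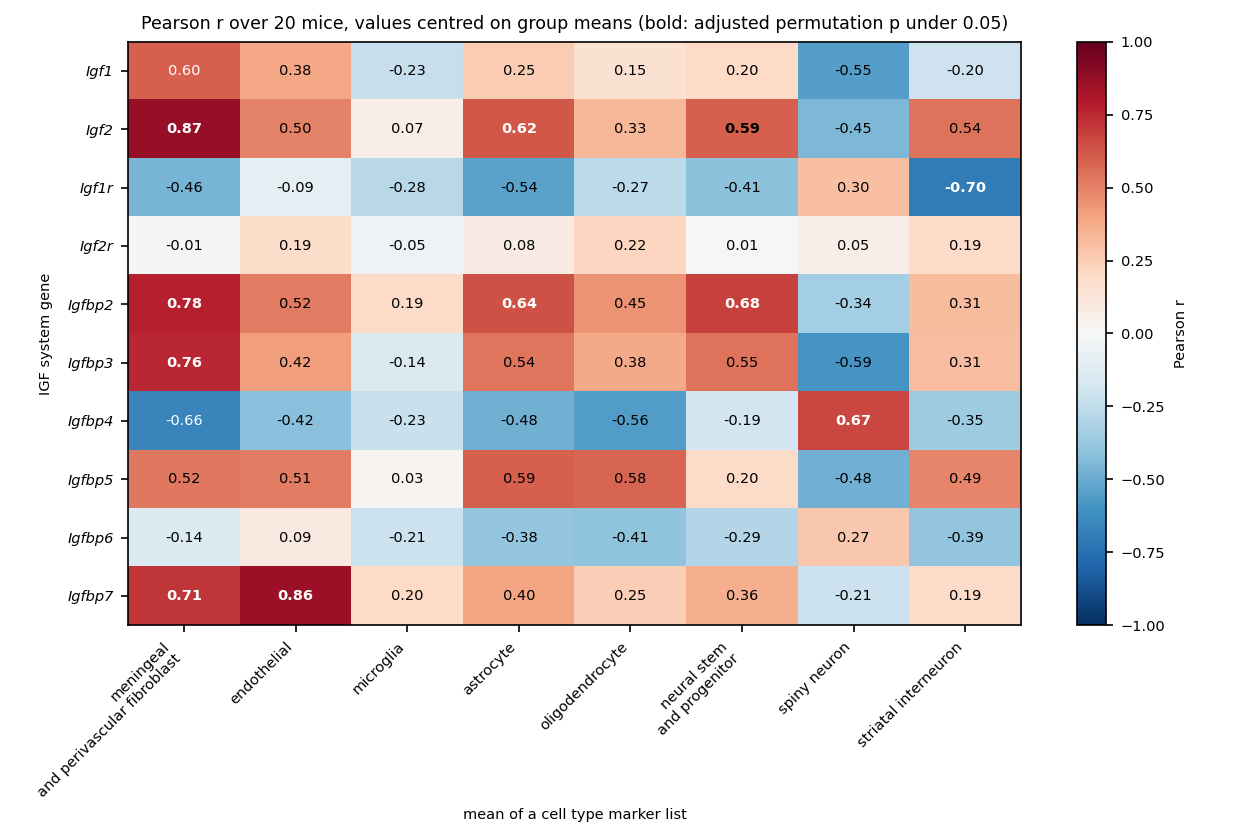
Each cell gives Pearson's r over 20 mice between a member (rows) and the mean of a cell type marker list (columns), both centred on group means. Shown are the 8 lists whose values had no wide gap between inner mice. Bold cells have an adjusted permutation p under 0.05, and the strongest are Igf2 with fibroblasts (0.87) and Igfbp7 with endothelium (0.86).

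The choroid plexus and the pericyte lists each had a wide gap between inner mice, of 0.261 and 0.314 of their range. A gap over 0.25 of the range was counted as wide. Gaps next to the most extreme mice were not counted, and r is given on each side of the inner gap. In the choroid plexus list a wider gap set WT-Veh mouse 64 (0.88 from its group mean) apart from the next mouse (0.42). Ttr, the choroid plexus transthyretin, ran from 7.74 to 12.8 log2 units over the 20 mice. Igfbp2 and the choroid plexus mean had r = 0.463 in the 10 mice below the gap and 0.666 in the 10 above. For Igf2 these were 0.458 and 0.022, and for Igfbp3 they were 0.086 and 0.014. The 10 mice above include mouse 64, which was also the highest of them for Igfbp2 (0.41 from its group mean). The 0.666 may therefore rest on this mouse, and no value without it was computed. Igfbp7 and the pericyte mean had r = 0.025 in the 9 mice below and 0.766 in the 11 above. These values are descriptions with no test.

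**Figure D5:**
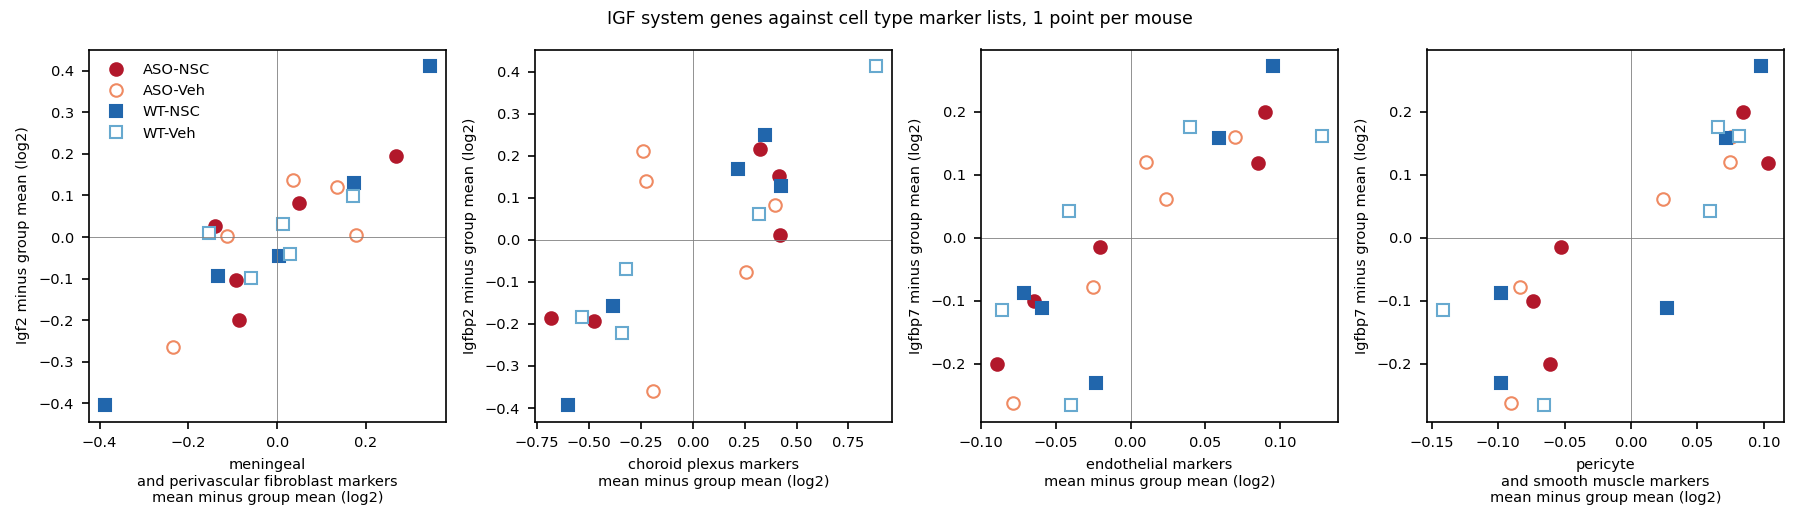
Points are the 20 mice, with a member's level on the vertical axis and the mean of a marker list on the horizontal axis, both in log2 units from the group mean. Igf2 is higher in mice with a higher fibroblast mean (r = 0.87) and Igfbp7 in mice with a higher endothelial mean (r = 0.86), while the choroid plexus and pericyte panels split into mice below and above a gap.

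The genes most like 3 members across the 20 arrays, by Pearson's r of group-centred values among 22180 genes, were Slc5a5 (0.923), Slc13a4 (0.918) and Cp (0.870) for Igf2, of which Slc13a4 is itself a gene of the fibroblast list. For Igfbp5 they were Mab21l2 (0.828), Slc2a1 (0.799), the glucose transporter of the blood-brain barrier, and Prps2 (0.793). For Igf1 they were Gm3898 (0.837), Macroh2a3 (0.822) and 0610005C13Rik (0.821). These are the highest of many values and carry no test.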

How the data were processed

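The 20 arrays (Affymetrix Mouse Gene 2.0 ST, 1 mouse each) were deposited by the authors as log2 values, made with RMA in the oligo package (background correction, normalization across arrays, core summarization); the table holds 41345 transcript clusters. Of these 23521 carried a single symbol and gave 22180 genes, with the probe set of the highest interquartile range kept where a gene had several. Precision depends on the number of mice, since an array has no read depth.

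Groups, litter, sex and RNA integrity came from the sample labels. Group differences were fitted by limma 3.58.1 under R 4.3.3 (lmFit, contrasts.fit, eBayes; group and labelled sex; 19 arrays, 18.2 total degrees of freedom), with Benjamini-Hochberg adjustment over all genes. ASO-NSC mouse 59 was left out of that fit. Correlations used 100000 within-group permutations in Python 3.11.15 on all 20 arrays. The code was tested on simulated data. Members and gene lists were chosen with earlier results of these data known. Beyond the 10 members, the text names by rule the genes of each list past the test and up to 4 with the largest moderated statistic in the NSC effect of ASO or of WT mice, and the 3 genes most like Igf1, Igf2 and the member with the largest statistic. Marker list means leave out the members. Start regions are RefSeq sequences of GRCm38.p6. Alternatives were the arrays, the sex term, litter, RNA integrity, the prior, probe sets, filters, scaling and each mouse left out, and, added after seeing the data, each of litters 3, 4 and 6 left out.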

Additional observations from a re-analysis of the deposited data

Results flagged for a closer look

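Of 40 groups of 5 mice (10 members by 4 groups) 2 held a mouse far from the other 4, and chance flags about 1 in 20 groups. Igf1 in ASO-NSC mouse 59 read 7.14 log2 units, against 6.72 for the nearest and 6.63 for the lowest of the group, and this is the array left out of the fit. Igfbp6 in ASO-Veh mouse 47 read 7.85, against 8.00 for the nearest and 8.06 for the highest of the group, and the sex genes of this array did not match its label.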

How the results depend on the processing

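No paired analysis was possible because each mouse number is used once, so it pairs no mice; litters that groups share entered as a block and as within-litter values instead. Over 16 alternatives and 19 fits that each left out 1 mouse, Igfbp5 stayed above 0 in all NSC comparisons, and no other member was called in any. The averaged NSC comparison called 0 members with litter as a fixed block, 0 without litter 4 and 0 without litter 6, and its Igfbp5 effect was 0.12 to 0.44 over the alternatives and 0.37 to 0.43 over the fits leaving out 1 mouse (limma adjusted p 0.00171 to 0.00875). With sex taken from the genes, 1 member (Igfbp5) was called in ASO and 1 in WT mice. Leaving out 1 mouse gave 0 to 1 member in WT mice (1 without WT-Veh mouse 64) and 0 to 1 in ASO-NSC minus WT-Veh (1 without ASO-Veh mouse 47 or WT-NSC mouse 54). That last comparison also called 1, Igfbp5, with all 20 arrays, with RNA integrity as a term, with a trended and robust prior, among genes with a mean of at least 5 and among the more variable genes. The count of marker pairs past the threshold was 15, against 6 when centred on litter and group, 2 without the 2 farthest mice and 11 with 19 arrays. Over all genes, the averaged comparison called 256, and 0 to 480 under the alternatives and 97 to 1004 with 1 mouse left out, and the WT comparison called 96, against 2 to 123 and 4 to 277. The ASO comparison called 2 (0 to 4 and 0 to 3) and ASO-NSC minus WT-Veh called 3 (0 to 18 and 0 to 9). Among the 69 uncalled member values 40 changed sign under at least 1 setting. Fitting only the groups compared gives no value for the averaged effect or the genotype difference, and 4 members drop out of the variance filter. Causes were not tested.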
